A study of Vitis labrusca x Vitis vinifera with 9 samples.

Results

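The 71 grapevine genes described here, of 30128 with a probe on the array, had a higher signal in buds sprayed with hydrogen cyanamide (HC) than in water-treated buds, and showed little or no such rise when the canes were pruned, with cyanamide (PHC) or without it (P). They were chosen by their measured values. Each had a mean log2 ratio of treated over control of at least 1.5 over the 3 HC arrays, below 0.5 over the 3 PHC arrays and below 0.5 over the 3 P arrays, and a treated signal well above background on all 3 HC arrays. Of 714 probes with such a mean and signal after HC, 71 met the ceilings after PHC and P, 393 missed the PHC ceiling alone, 5 missed the P ceiling alone and 245 missed both. Of the 71 genes, 38 carry a single annotation, copper ion binding.

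The buds came from the 8th node of mature canes of 5-year-old grapevines (Vitis labrusca x Vitis vinifera). They were dormant when treated in the summer and were collected 24 h later. HC buds were sprayed with 1% hydrogen cyanamide, PHC buds received the same spray on canes cut 2 cm from the node, P buds stood on cut canes and received water, and control buds on uncut canes were sprayed with water. Each of 9 arrays, 3 per treatment, carried treated RNA in Cy5 and water-control RNA in Cy3, with no dye exchange, so a dye effect of a probe stays in its ratio. For HC the labels and the methods conflict, since the labels call these canes pruned while the methods state a spray without pruning. The HC arrays were read by the methods here. The labels call the replicates biological, and the methods name 3 randomized blocks and 10 nodes per sample. Each value is an average over whole buds, so that fewer cells of a type and less RNA per cell cannot be told apart. Across the arrays 83.7 to 90.3% of the probes were well above background in Cy5 and 80.6 to 88.9% in Cy3. Of the marker lists for other tissues, the 5 green leaf probes were all detected in the control channel and none was called after any treatment. Of 3 tested probes for dividing meristem 0 were called higher after HC, 2 after PHC and 1 after P, of 4 tested pollen probes 1 was called lower after PHC, and 0 probes matched the floral and vascular lists. None of the matched probes is a member, and their part in the results was not tested. The lists were matched to homolog descriptions, which 25.5% of tested probes have, so they miss related genes. The nucleosome term is carried by 50 tested probes. Of these, 1 is a member, GSVIVT00022735001, and 7 are among the other probes with a mean of at least 1.5 after HC.

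Hydrogen cyanamide is sprayed on grapevine and fruit trees to force dormant buds open. It disturbs respiration and inhibits catalase, and peroxide accumulates in treated buds. Pruning removes the shoot tip and the upper buds, whose hormones hold lower buds at rest in the summer. Proteins annotated with copper ion binding carry copper as a redox centre. In plants they include laccases, which oxidize phenolics such as lignin precursors in the cell wall, ascorbate oxidases and copper amine oxidases of the apoplast, and small blue copper proteins that carry electrons.

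Although the genes were sought as silent on pruned canes, their transcripts were present there. The Cy5 signal was well above background on all 6 PHC and P arrays for 68 of the 71 members, and for the other 3 on 2 to 5 of them. In those buds the members lay near the level of the water controls. The mean log2 ratio was between -0.45 and 0.49 after PHC, with a median of 0.20, and between -0.77 and 0.42 after P, with a median of -0.16. After HC the same means ran between 1.5 and 2.94, with a median of 1.86. On pruned canes the genes thus had a level close to the control, not a missing transcript. The heat map of log2 ratios shows this contrast probe by probe.

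**Figure D1:**
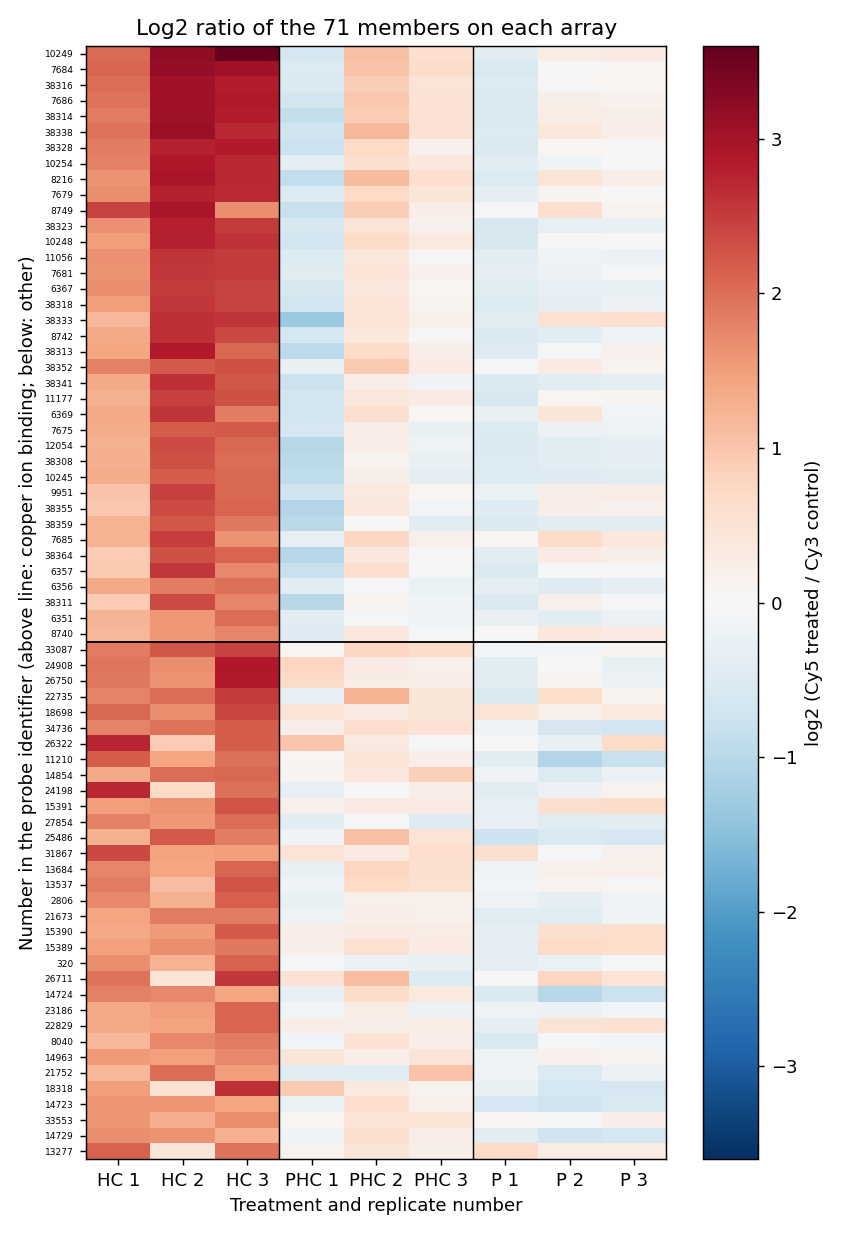
Log2 ratio of treated (Cy5) over water control (Cy3) for the 71 members (rows, labelled by the number in the probe identifier) on each of the 9 arrays (columns, HC, PHC and P, replicates 1 to 3); the 38 copper ion binding genes stand above the line and the 33 others below it, each ordered by mean after HC. The HC columns are red throughout, with values of 0.44 and above, and the PHC and P columns are mostly pale, with 9 members at 1 or above on a PHC array, 0 on a P array and a lowest PHC value of -1.35.

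Because the choice read the ratios of all 3 treatments, the calls of the fit across all tested probes only describe the members. All 71 were called higher after HC, a call that 5.16% of the 26395 tested probes had. A call here means a limma p below 0.05 after Benjamini-Hochberg adjustment together with a 2-fold or larger ratio. After PHC 0 members were called higher, against 13.5% of tested probes, and 0 lower, against 11.7%. After P 0 were called higher, against 2.75%, and 0 lower, against 0.572%. At an unadjusted limma p under 0.05, 7 members were higher and 1 was lower after PHC, and 1 was higher and 9 were lower after P. Shares of all tested probes at this unadjusted limit are not given here, so these member counts cannot be set against a background. The ceilings of the choice also held back higher means after PHC and P. The difference HC minus PHC was called above 0 for 69 members, against 5.33% of tested probes, and below 0 for 0, against 8.55%. The difference HC minus P was called above 0 for 68, against 3.35%, and below 0 for 0, against 3.13%. Without the 3 arrays of replicate 3 these counts were 12 and 18, and without those of replicate 2 HC minus P was called for 26. For 67 members all 3 HC arrays lay above all 6 PHC and P arrays, against 6.35% of tested probes. The median difference was 1.82 for HC minus PHC (1.09 to 2.60) and 2.11 for HC minus P (1.09 to 2.91), on the log2 scale.

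The contrast lay in the treated channel. Relative to the median tested probe of the same array, the median background-subtracted Cy5 signal of the members was 1.78, 2.12 and 2.05 on the HC arrays, on the log2 scale, against -0.45, 0.21 and -0.20 on the PHC arrays and -0.32, -0.29 and -0.31 on the P arrays. The 3 HC arrays stood apart from the other 6. The Cy3 signal of the same probes, from the water controls, was 0.04, -0.15 and -0.41 on the HC arrays, 0.00, -0.30 and -0.54 on the PHC arrays and 0.12, -0.37 and -0.47 on the P arrays. These control values overlapped between treatments and differed more by replicate number than by treatment.

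**Figure D2:**
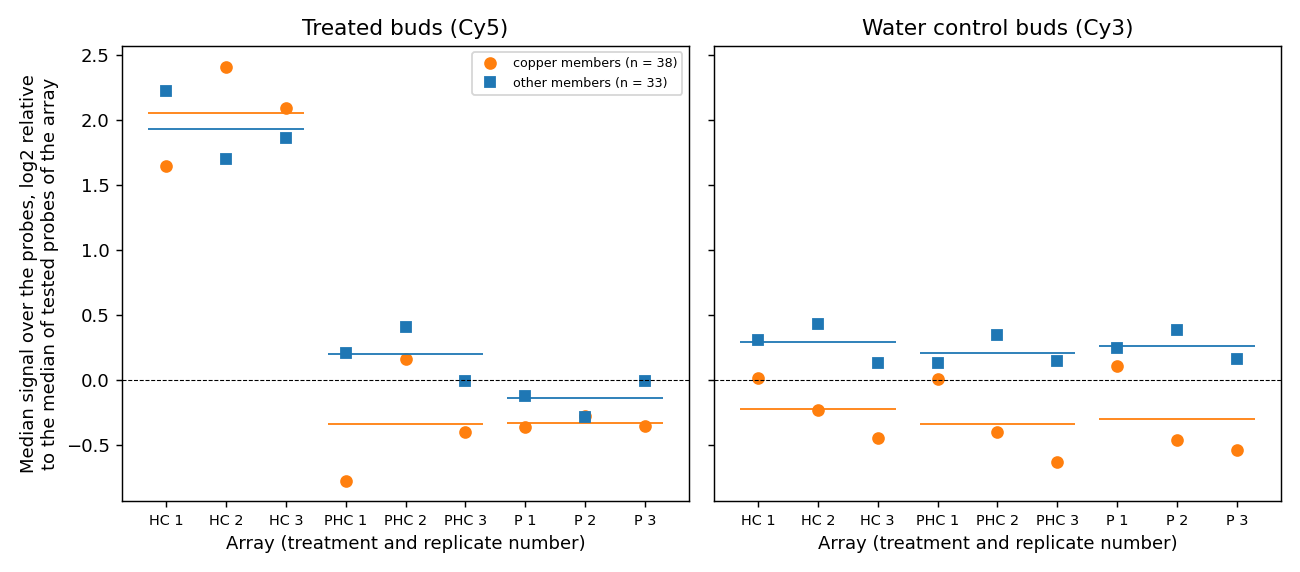
Median background-subtracted signal of the copper ion binding members (circles) and the other members (squares) on each array, as log2 relative to the median tested probe of that array, in treated buds (Cy5, left) and water control buds (Cy3, right); lines are means over the 3 arrays of a treatment. In Cy5 both sets stand at 1.65 to 2.41 on the HC arrays and at 0.41 or lower on the PHC and P arrays, and in Cy3 the treatments overlap.

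The annotation, which the choice did not use, was uneven. The files give a gene ontology term for 63 of the 71 members and for 13546 tested probes. Copper ion binding was the term of 38 of the 63 annotated members (60.3%) and of 163 of the 13546 annotated tested probes (1.2%). Of the 440 annotated probes among the 643 others with a mean of at least 1.5 after HC, 3 carried it (0.682%). The next terms among the members were monooxygenase activity and lipid metabolic process, with 4 members each. Of the 13546 annotated tested probes, 387 carried the first and 121 the second. Among the 440 annotated others raised by HC, 20 carried the first and 1 the second. The term was picked out after the members had been seen, and no test was made. None of the 38 has a described or named homolog in the files. Of all 184 probes with the term 19 have a description, among them 11 as plastocyanin-like, 3 as copper amine oxidase and 2 as ascorbate oxidase, so the protein family of the members is not given in the sources used here.

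The 12 members with the highest means after HC were all copper ion binding genes, as were 23 of the 28 members with a mean of at least 2. GSVIVT00010249001 was the highest, with log2 ratios of 2.04, 3.20 and 3.59 on the HC arrays, -0.64, 1.05 and 0.62 on the PHC arrays and -0.40, 0.27 and 0.29 on the P arrays. Its lowest HC value lay above its highest PHC value. GSVIVT00007684001 had 2.09, 3.16 and 3.02 on the HC arrays, -0.49, 1.02 and 0.65 on the PHC arrays and -0.56, 0.02 and 0.07 on the P arrays. GSVIVT00038316001 had 2.02, 3.03 and 2.83 on the HC arrays, -0.51, 0.89 and 0.48 on the PHC arrays and -0.48, 0.04 and 0.06 on the P arrays. In all 3 genes replicate 1 gave the lowest ratio of each treatment, and the HC arrays did not overlap the others. The background-subtracted signals behind the last gene were 1227, 6708 and 1120 units in HC buds and 277, 869 and 1001 units in PHC buds. They were 310, 524 and 631 units in P buds, and 124 to 236 units in the control buds of the 9 arrays. These units precede dye normalization, so they cannot be compared between channels or between arrays. The median tested probe had 1235 Cy5 units on HC array 2 and 255 on HC array 3.

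The next copper genes had like values. GSVIVT00007686001 averaged 2.62 ± 0.58 after HC, 0.28 ± 0.85 after PHC and -0.05 ± 0.42 after P (log2 ratio, SD, n = 3). GSVIVT00038314001, GSVIVT00038338001 and GSVIVT00038328001 averaged 2.59, 2.58 and 2.49 after HC, 0.20, 0.33 and 0.03 after PHC and -0.01, 0.05 and -0.14 after P. GSVIVT00010254001, GSVIVT00008216001, GSVIVT00007679001 and GSVIVT00038323001 averaged between 2.32 and 2.47 after HC, between 0.02 and 0.28 after PHC and between -0.38 and 0.09 after P. The remaining gene of these 12, GSVIVT00008749001, averaged 2.35 after HC, but its Cy3 signal passed the background limit only on 2 HC arrays, and with normexp its mean was 1.10 after loess and 1.09 after median centring. Copper genes also held the lowest means after PHC. GSVIVT00038359001 averaged 1.80 ± 0.51 after HC, -0.45 ± 0.49 after PHC and -0.44 ± 0.07 after P (SD, n = 3), and GSVIVT00038308001, GSVIVT00010245001, GSVIVT00038311001 and GSVIVT00012054001 averaged between -0.37 and -0.32 after PHC. The SD over the 3 PHC arrays was larger than the size of the mean in each of these 5 genes. Over the 38 genes, the median of the means was 2.12 after HC, -0.02 after PHC and -0.14 after P.

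**Figure D3:**
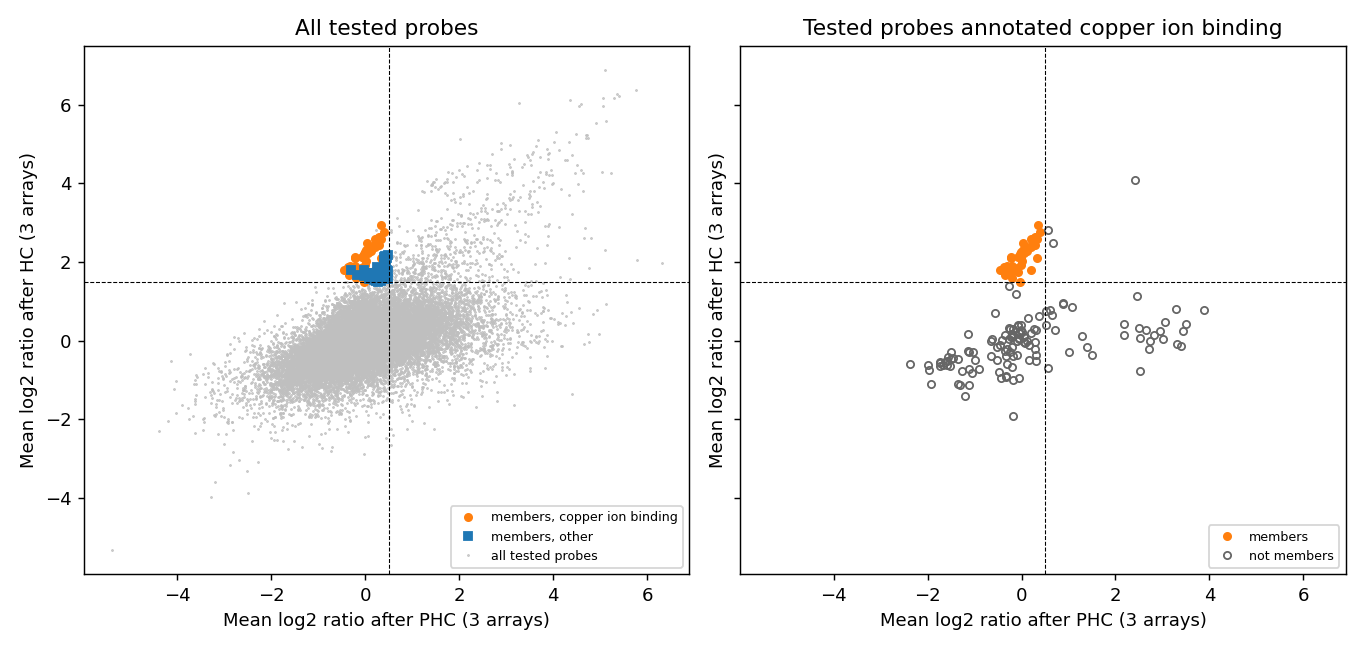
Mean log2 ratio after HC (vertical) against the mean after PHC (horizontal), each over 3 arrays, for all tested probes with the members marked (left) and for the 163 tested copper ion binding probes (right); dashed lines are the limits of 1.5 and 0.5. The 38 copper ion binding members form a band between 1.5 and 2.94 after HC, apart from most other probes of the term.

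The copper ion binding genes did not answer as one class. Of the 163 tested, 43 were called higher and 5 lower after HC (26.4 and 3.07%, against 5.16 and 4.75% of all tested probes). After PHC 24 were called higher and 28 lower (14.7 and 17.2%, against 13.5 and 11.7% of all tested probes). The share called higher after PHC was thus near that of all tested probes. After P 18 were called higher and 0 lower (11 and 0%, against 2.75 and 0.572%). Without the members, 5 of 125 were called higher and 5 lower after HC, and their median was -0.06, against -0.03 over all tested probes. Of the 41 tested copper probes with a mean of at least 1.5 after HC, 38 were members. The 3 others were GSVIVT00006368001 with means of 2.81 after HC and 0.56 after PHC, GSVIVT00038326001 with 2.49 after HC and 0.67 after PHC, and the copper amine oxidase GSVIVT00019973001 with 4.08 after HC, 2.42 after PHC and 1.25 after P. The first pair missed the PHC ceiling by less than 0.2, and the amine oxidase, which makes peroxide from polyamines, was high after all 3 treatments.

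Many of the copper genes have nearly consecutive numbers in their identifiers. With gaps of at most 15, 39 of the 71 members fell into 7 groups of at least 3 genes. Of these 39, 33 were copper ion binding genes. Such groups were not counted for other probes, so the count has no background. Copper probes outside the members also had near numbers, as GSVIVT00036536001, GSVIVT00036537001 and GSVIVT00036539001 did. All 6 probes numbered 7675 to 7686 were members, with means of 1.79 to 2.76 after HC. Between 38308 and 38364 there were 15 members among 46 probes, with means of 1.67 to 2.63 after HC. The 23 other tested probes in that stretch had a median of 0.09 after HC, -0.09 after PHC and 0.04 after P. Only 3 of them carry the copper term, and these averaged 2.49, 1.19 and 0.01 after HC. Among all 23, means after HC ran between -0.82 and 2.49, so single probes there also differed from the control. Smaller groups were 5 members among 11 probes from 6351 to 6369, 4 among 8 from 10245 to 10254, and 3 among 5 from 8740 to 8749. Positions on the genome were not used here, and near numbers were not checked against near positions.

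**Figure D4:**
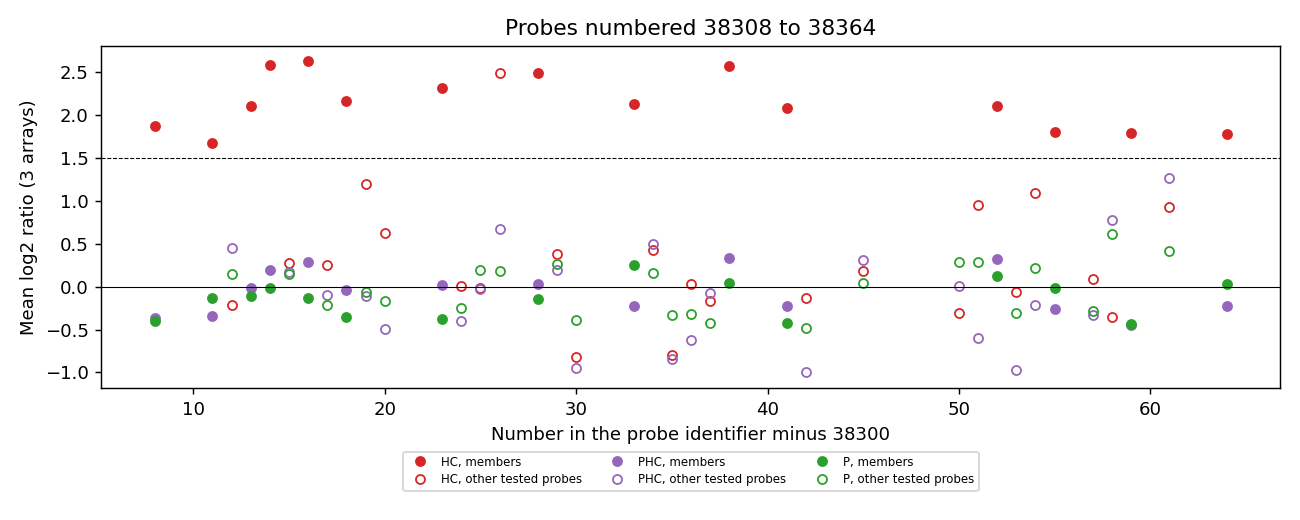
Mean log2 ratio after HC (red), PHC (purple) and P (green) of the tested probes numbered 38308 to 38364, placed by identifier number; filled circles are the 15 members and open circles the 23 other tested probes. The filled red circles lie between 1.67 and 2.63, while the open circles have medians of 0.09 after HC, -0.09 after PHC and 0.04 after P.

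The copper genes also shared their scatter between replicates, which the means used for the choice do not hold. Of the 38, 37 had their lowest HC ratio on replicate 1, 38 their lowest PHC ratio on replicate 1 and 36 their lowest P ratio on replicate 1. Of the 33 other members, 13, 21 and 16 did. The highest PHC ratio was on replicate 2 in 38 of 38 copper genes and in 20 of the 33 others. These counts were not made over all tested probes. Across all tested probes, deviations on the 3 replicate 1 arrays also correlated with each other, at 0.563 to 0.626. The median log2 ratio of the copper genes was 1.40, 2.56 and 2.29 on the HC arrays, -0.68, 0.47 and 0.13 on the PHC arrays and -0.49, 0.03 and 0.00 on the P arrays. Replicate 1 was thus low after every treatment. Within a replicate number, the median difference between HC and PHC was 2.17, 2.08 and 2.27, and between HC and P 1.88, 2.68 and 2.42, and all 38 genes had the higher value after HC on each number. The deviations of each probe from its treatment means were correlated with the median profile of the 71 members over the 9 arrays. The correlation was over 0.9 for 33 of the 38 copper genes, 4 of the 33 other members, 46 of the 643 other probes raised by HC (7.15%) and 1.44% of the tested probes. All probes share the same 9 arrays, whether arrays of a replicate number share a control sample is not given, and the profile was built from the members themselves. Close pairs occurred too, as GSVIVT00038355001 and GSVIVT00038364001 differed by at most 0.07 on every array. The probe sequences were not used here, so how far probes of like genes read the same transcripts was not tested.

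**Figure D5:**
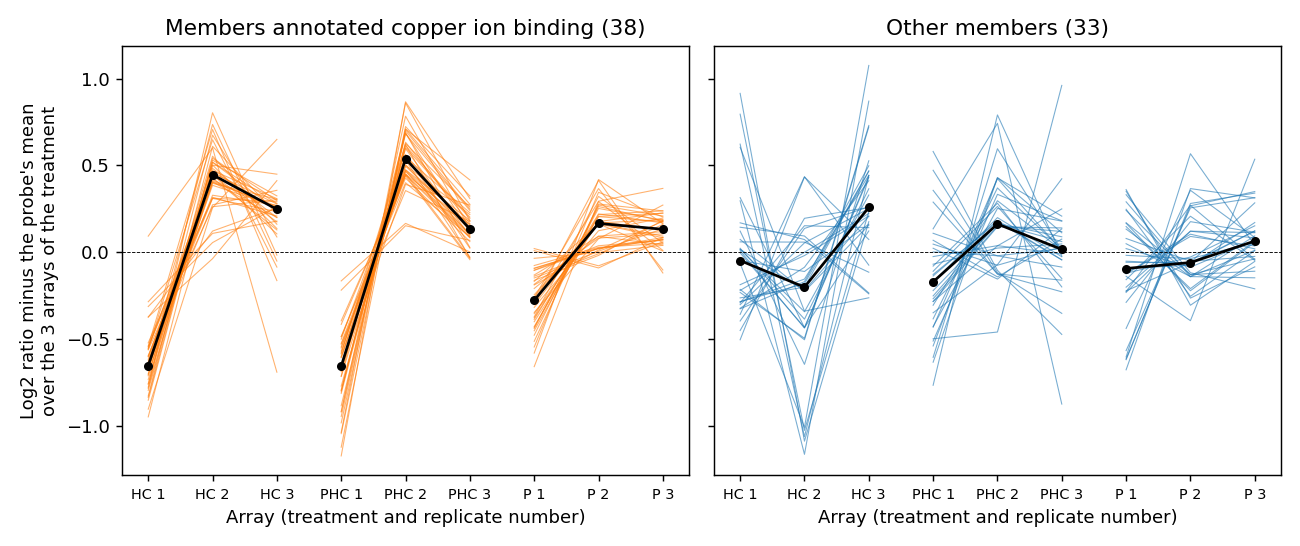
Log2 ratio of each member minus its own mean over the 3 arrays of that treatment, for the 38 copper ion binding members (left) and the 33 other members (right); thin lines are genes and black points the medians. The copper genes dip together on replicate 1 of each treatment, with medians of -0.65, -0.66 and -0.28, and the other members show medians of -0.05, -0.17 and -0.09 there.

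To read the pattern on arrays that had not been used for the choice, the rule was applied to 2 replicate numbers and the arrays of the third were read. Chosen without replicate 1, the 63 probes had medians of 1.33 on the HC array left out, -0.43 on the PHC array and -0.38 on the P array, and 61 of 63 were higher after HC than after PHC. Chosen without replicate 3, the 76 probes had medians of 2.10 after HC, 0.31 after PHC and 0.06 after P, and 73 were higher after HC than after PHC. Chosen without replicate 2, the 198 probes had medians of 0.47 after HC, 0.58 after PHC and 0.33 after P, and 103 were higher after HC than after PHC. Between 50.7 and 52.7% of all tested probes were higher after HC than after PHC on the arrays of a number. All 26, 36 and 38 copper probes chosen without replicates 1, 2 and 3 were higher after HC than after PHC and after P on the arrays left out, with HC medians of 1.34, 2.60 and 2.39. The copper term, however, was picked out after the members chosen on all arrays had been seen. The arrays left out thus had a part in this split, which is not an independent reading. Like copper probes may also read the same transcripts, so their counts need not be separate observations. Of the 162 other probes chosen without replicate 2, 67 were higher after HC than after PHC. Without the array of HC replicate 2 alone, 184 probes met the rule, 65 of them members.

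The 33 members without the copper term were lower after HC, with a median of 1.72, and held fewer shared features. The 4 monooxygenases had means of 1.52 to 1.87 after HC and 0.18 to 0.25 after PHC, and held 4 of the 5 lowest means after P. Monooxygenases insert oxygen into small molecules, as cytochromes P450 do. GSVIVT00011210001 had log2 ratios of 2.18, 1.43 and 1.99 on the HC arrays, 0.08, 0.45 and 0.23 on the PHC arrays and -0.40, -1.07 and -0.81 on the P arrays. GSVIVT00014724001 averaged 1.66 ± 0.21 after HC, 0.24 ± 0.49 after PHC and -0.77 ± 0.25 after P (SD, n = 3). All 4 genes, including GSVIVT00014723001 and GSVIVT00014729001, were below 0 on each P array, as were 32 of the 71 members (35% of tested probes), although none passed the test for P. On all 3 PHC arrays 5 members were below 0, against 41.5% of tested probes.

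The 4 genes of lipid metabolic process, GSVIVT00015389001, GSVIVT00015390001, GSVIVT00015391001 and GSVIVT00022829001, averaged 1.64 to 1.80 after HC, 0.24 to 0.35 after PHC and 0.24 to 0.32 after P. Their P ratios were below 0 on replicate 1 and above 0 on replicates 2 and 3 in each gene, and each was higher on every HC array than on any PHC or P array. GSVIVT00000320001 is annotated as a stearoyl-CoA desaturase, an enzyme that puts a double bond into fatty acids. It had 1.67, 1.24 and 2.12 on the HC arrays, -0.07, -0.20 and -0.27 on the PHC arrays and -0.34, -0.25 and -0.07 on the P arrays, without overlap. A copper ion transporter, GSVIVT00024198001, moves the metal across membranes. It had 2.72, 0.71 and 1.98 on the HC arrays, -0.31, 0.01 and 0.23 on the PHC arrays and -0.38, -0.22 and 0.13 on the P arrays. Its lowest HC ratio was on replicate 2, where the copper ion binding genes were high.

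Among regulators, the study's tables name GSVIVT00021673001 as heat stress transcription factor A-2e, of the family that switches on chaperone genes. It had 1.42, 1.87 and 1.86 on the HC arrays, -0.19, 0.23 and 0.20 on the PHC arrays and -0.44, -0.42 and -0.18 on the P arrays, and its HC arrays did not overlap the others. A pair of genes is described as RING finger proteins, which mostly attach ubiquitin to other proteins. GSVIVT00018698001 (homolog AT2G42360) had 2.07, 1.66 and 2.42 on the HC arrays, 0.45, 0.33 and 0.44 on the PHC arrays and 0.47, 0.20 and 0.35 on the P arrays. It thus stayed slightly above the control on all 6 arrays of pruned canes. GSVIVT00023186001 (homolog AT5G60580) averaged 1.65 ± 0.39 after HC, -0.02 ± 0.25 after PHC and -0.16 ± 0.05 after P (SD, n = 3). These 2 were the members in the list of ubiquitin ligases, of 212 tested, and in the zinc finger list, of 216 tested. GSVIVT00014854001, described as a transferase family protein, was the member of the acyltransferase list, of 88 tested, and averaged 1.80 ± 0.39 after HC, 0.44 ± 0.39 after PHC and -0.28 ± 0.20 after P (SD, n = 3). The other 30 gene lists held 0 members, but only 5 members carry a homolog description to match (7.04%, against 25.5% of tested probes).

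GSVIVT00025486001, a short-chain dehydrogenase/reductase with homolog AT4G13180, had 1.28, 2.22 and 1.86 on the HC arrays, -0.14, 1.06 and 0.48 on the PHC arrays and -0.75, -0.54 and -0.59 on the P arrays. Enzymes of this family use NAD(P)H to reduce or oxidize small molecules. Its treatments came in the order HC, PHC, P on each replicate number. GSVIVT00022735001, annotated to the nucleosome, had 1.78, 2.02 and 2.51 on the HC arrays, -0.30, 1.26 and 0.45 on the PHC arrays and -0.53, 0.65 and 0.12 on the P arrays. GSVIVT00024908001 and GSVIVT00026750001, both annotated to membranes, differed by at most 0.09 on every array and averaged 2.16 and 2.12 after HC, 0.42 and 0.40 after PHC and -0.21 and -0.18 after P. GSVIVT00027854001, a GTP-binding protein, averaged 1.80 ± 0.21 after HC, -0.30 ± 0.23 after PHC and -0.38 ± 0.07 after P (SD, n = 3), and was below 0 on all 6 arrays of pruned canes. A zinc-binding gene, GSVIVT00034736001, averaged 1.98 ± 0.20 after HC, 0.45 ± 0.20 after PHC and -0.49 ± 0.29 after P (SD, n = 3). GSVIVT00033087001, which has no annotation, averaged 2.19 ± 0.28 after HC, 0.49 ± 0.37 after PHC and -0.03 ± 0.11 after P (SD, n = 3). Genes named outside the naming rule, the number groups and like pairs included, were chosen after their values were seen.

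For 3 members the control signal was not well above background on any HC array, so that only a bound can be given. In the deposited dye-normalized signals, HC was at least 1.83-fold the control for GSVIVT00013277001 and at least 2.15-fold for the magnesium-binding gene GSVIVT00021752001. It was at least 1.2-fold for GSVIVT00026322001, a subtilase, that is a serine protease. These bounds hold for that processing only. With normexp the mean log2 ratio of GSVIVT00013277001 was 0.23 after loess and -0.10 after median centring, below its bound of 0.87 on that scale. The kinase gene GSVIVT00031867001 and the nucleic acid-binding gene GSVIVT00026711001 were measured in the control on 2 of the 3 HC arrays. The control channel was well above background on all 9 arrays for 65 of the 71 members.

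Members just inside the limits differed little from probes just outside. After HC, GSVIVT00008740001, GSVIVT00013277001 and GSVIVT00014729001 lay inside with means of 1.5002, 1.5023 and 1.52, and GSVIVT00021359001, GSVIVT00014758001 and GSVIVT00017698001 outside with 1.4998, 1.4991 and 1.487. After PHC, GSVIVT00033087001, GSVIVT00031867001 and GSVIVT00018318001 lay inside with 0.49, 0.48 and 0.48, and GSVIVT00027332001, GSVIVT00016442001 and GSVIVT00017940001 outside with 0.50, 0.51 and 0.51. After P, GSVIVT00026711001, GSVIVT00013277001 and GSVIVT00007685001 lay inside with 0.42, 0.41 and 0.36, and GSVIVT00008521001, GSVIVT00027322001 and GSVIVT00004863001 outside with 0.54, 0.62 and 0.66. Of these 9 probes outside, 0 carry the copper term. The 643 other probes with a mean of at least 1.5 after HC had medians of 2.35 after HC, 1.87 after PHC and 0.35 after P, the order after PHC being set by the choice.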

How the data were processed

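Probes were read from 9 2-colour Agilent arrays with 30128 probes, 1 per gene. The deposited intensity values are linear signals per spot and channel, background-subtracted and dye-normalized by the authors with Agilent Feature Extraction 10.5. Signals given in units or relative to the array median are background-subtracted values before dye normalization, except where dye-normalized is stated. The deposited log2 values are the authors' log2 ratios of Cy5 over Cy3, which the rule and the fit use. Other deposited columns, flags for background and outlier spots, selected the 26395 tested probes, those with a clear signal in 1 or both channels on each of the 3 arrays of any treatment, and left 81 outlier values out of the fit. Slide and scan date are not given in the sources used here.

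Members and lists were chosen with earlier results of these data known. A limma 3.58.1 fit (R 4.3.3) of the log2 ratios of all 9 arrays estimated a mean per treatment without a block (residual df 6, prior df 2.74), with Benjamini-Hochberg adjustment per comparison over all tested probes. The fit was tested on simulated data with noise drawn independently for each array. That simulation lacked the variation shared by arrays of a number, so it cannot give the error rate under such variation. Bounds for dim controls set the control at the lowest dye-normalized signal called above background on the array. The genes named were the 12 highest members after HC, up to 3 per list, the 5 lowest after PHC and after P, the member the study's tables name and those nearest each limit. Alternatives were other limits, filters, normalizations (normexp with an offset of 50, then loess or median centring, and scaling), the series table, weights, a replicate block and leaving out arrays. A setting on background-subtracted signals was added after seeing the data. The number of arrays limits precision. Plots used matplotlib 3.10.9 under Python 3.11.15.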

Additional observations from a re-analysis of the deposited data

Results flagged for a closer look

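Effects of 2 treatments under the same contrast against water differed for most members, with a limma test of the difference itself. The difference HC minus PHC was called for 69 of the 71 members and HC minus P for 68. The choice required a high mean after HC and a low mean after PHC and P, so these counts follow from it. The 2 members not called for HC minus PHC were GSVIVT00026711001 and GSVIVT00018318001, and the 3 not called for HC minus P were GSVIVT00026711001, GSVIVT00038333001 and GSVIVT00013277001.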

How the results depend on the processing

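The number of members was 28 with a mean of at least 2 after HC, 42 and 111 with ceilings of 0.25 and 0.75, and 30 with normexp and median centring, 18 of them shared with the 71. It ran from 60 to 198 when arrays were left out, with 184 without HC replicate 2 and 198 without all arrays of number 2. Copper ion binding members numbered 23 with a mean of at least 2, 16 with normexp and median centring, and 26 to 40 when arrays were left out. HC minus PHC was called for 12 to 69 members and HC minus P for 18 to 68 when arrays were left out, the lowest without all 3 arrays of number 3, and HC minus P for 26 without those of number 2. With normexp and median centring 3 members were called higher after PHC (GSVIVT00022735001, GSVIVT00025486001 and GSVIVT00033087001), and with arrays scaled to one spread 2 were called lower after P (GSVIVT00014724001 and GSVIVT00011210001). Tested probes called HC above PHC were 1407, 423 with normexp and median centring, 596 with scaled arrays, and 427 to 1890 when arrays were left out. Those called HC above P were 883, and 309 to 1090 when arrays were left out. The cause was not tested. The median Cy5 signal of the members on the P arrays was -0.31 relative to the array, and -0.33 in the dye-normalized signal. With normexp and median centring the mean after HC was -0.10 for the dim GSVIVT00013277001 (0.23 with loess), 0.48 for GSVIVT00031867001 (0.59 with loess), 0.44 for GSVIVT00026711001 and 1.09 for GSVIVT00008749001 (1.10 with loess). Of 594 values of named members under other settings, 584 moved by less than 1 SD of the replicates. Leaving out 1 of 3 HC arrays cannot move their mean by 1 SD, and leaving out PHC or P arrays cannot move it at all. Most of the 594 values therefore could not have moved that far. Of 33 values each, 4 moved further with normexp and loess, 4 moved and 1 changed sign with normexp and median centring, and 1 moved with scaled arrays.

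The labels do not say whether arrays of a number share a control sample or a block. Their Cy3 signals correlated at 0.991 to 0.997 across probes, against 0.977 to 0.992 between numbers. Deviations from treatment means correlated over 0.1 in 8 of the 9 array pairs that share a number (0.00261 to 0.626). Each of the 9 arrays correlated best with its own number. Arrays of a number thus shared variation, which the main fit, without a block, does not take into account. With the replicate block 71 members were called higher after HC, 69 for HC minus PHC and 69 for HC minus P, and 1389, 1541 and 980 tested probes. The fitted array weights, lower for arrays with more scatter, were 1.70, 0.30 and 0.23 for HC replicates 1, 2 and 3. They ran from 0.84 to 2.07 for PHC and from 0.91 to 3.16 for P. HC replicates 2 and 3, where the copper genes were highest, thus had the lowest weights.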

Other observations

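Other genes of the copper ion binding term went the opposite way. Of the 163 tested, 16 had a mean below 0.5 after HC and of at least 1.5 after PHC, and 9 of them also of at least 1.5 after P. Their means ran between -0.78 and 0.48 after HC (median 0.15), between 2.18 and 3.50 after PHC (median 2.78) and between 0.76 and 2.64 after P (median 1.63). GSVIVT00017414001, described as an ascorbate oxidase that spends ascorbate in the apoplast, averaged 0.27 after HC, 2.66 after PHC and 1.2 after P. GSVIVT00005406001 averaged 0.42 after HC, 3.50 after PHC and 1.66 after P, and its neighbours in number GSVIVT00005407001, GSVIVT00005409001 and GSVIVT00005410001 averaged -0.00, 0.24 and 0.15 after HC and 2.73, 3.43 and 2.83 after PHC. These genes were picked after their values were seen.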
